A study of Mus musculus with 246 samples.

Results

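The mouse mitochondrial genome carries 37 genes, and all of them are in the deposited count table of 56691 genes, chosen by a gene name that starts with mt-. They comprise 13 mRNA genes for subunits of the respiratory chain and of ATP synthase, 2 rRNA genes for the mitochondrial ribosome (mt-Rnr1 and mt-Rnr2) and 22 tRNA genes. RNA had been sequenced from punches of 6 brain regions of 41 adult male outbred CD1 mice, with the punches of both hemispheres pooled. There were 2 cortical regions, the medial prefrontal cortex (mPFC) and the anterior cingulate cortex (ACC). The others were the ventral hippocampus (vHipp), the nucleus accumbens (Nacc), the dorsomedial thalamus (DMT) and the basolateral amygdala (BLA), and each mouse gave a library of each region. For the Nacc, the authors name the core in their introduction and the shell in their methods. Early life adversity (ELA) was modelled by giving dam and litter limited bedding and nesting material. Each dam received a slow-release gel under the skin early after birth, either empty (Veh) or loaded with SAFit2, an inhibitor of the stress-related co-chaperone FKBP51, so that the pups took up the compound with the milk. The 3 conditions were control litters with empty gel (Ctrl_Veh), adversity with empty gel (ELA_Veh) and adversity with SAFit2 (ELA_SAFit2), and no control litter received SAFit2. The animals fall into 2 sets. In the set without interaction there were 7 mice per condition. In the other set, 6 Ctrl_Veh, 7 ELA_Veh and 7 ELA_SAFit2 mice had a social interaction of 10 minutes before the tissue was taken. The labels do not tie mice to litters, so litter mates count here as separate animals.

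Mitochondrial DNA is a small circle present in many copies per cell. It is transcribed from both strands as long precursors, which are cut at the tRNAs into single mRNAs and rRNAs. The polymerase Polrmt and the factors Tfam and Tfb2m drive this transcription, and nuclear genes supply these proteins, all RNA-processing enzymes and most subunits of the respiratory chain. In brain tissue, mitochondrial mRNAs make up a sizeable part of the polyadenylated RNA, and neurons depend on oxidative phosphorylation for their energy. The libraries were prepared from polyadenylated RNA, so tRNAs, which carry no such tail and are shorter than the fragments that such kits keep, are hardly measured. Values for rRNAs are the part of these molecules that the selection retained. On the annotation, 28 of the 37 genes lie on the plus strand and 9 on the minus strand, which holds 8 tRNA genes and mt-Nd6.

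Several of the results rest on sequence, because part of the mitochondrial genome has a near-identical copy in the nuclear genome. A block of chromosome 1 (GRCm38, 24611535 to 24616197) holds 7 annotated pseudogenes whose sequence matches mt-Co1, mt-Co2, mt-Atp6, mt-Co3, mt-Nd3, mt-Nd4l and mt-Nd4. In GRCm38 the aligned bases of 5 pairs held 0 mismatches. The pair of mt-Co1 and Gm29216 held 6 mismatches in 492 bases, all between T1056A and A1066T, counted from the 5′ end of mt-Co1. The pair of mt-Nd3 and Gm28438 held a single substitution in 345 bases, T3C, counted from the 5′ end of mt-Nd3. The start of both sequences of this pair is shown, from the GENCODE M21 transcripts of GRCm38, because the order of the regions for mt-Nd3 depends on how reads were divided between them. The capital marks the differing base.
mt-Nd3, first 120 bases (chrM:9459-9578, plus strand): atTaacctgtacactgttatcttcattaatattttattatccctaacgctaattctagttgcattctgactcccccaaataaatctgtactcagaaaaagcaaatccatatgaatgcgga
Gm28438, first 120 bases (chr1:24613000-24613119, minus strand): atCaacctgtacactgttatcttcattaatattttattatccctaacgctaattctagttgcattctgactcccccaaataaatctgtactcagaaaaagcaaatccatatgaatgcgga
Mitochondrial genes can also overlap each other. The end of mt-Atp8 and the start of mt-Atp6 share 43 bases, in capitals in the sequence of mt-Atp8, and the last 7 bases of mt-Nd4l are the first of mt-Nd4.
mt-Atp8 (chrM:7766-7969, plus strand): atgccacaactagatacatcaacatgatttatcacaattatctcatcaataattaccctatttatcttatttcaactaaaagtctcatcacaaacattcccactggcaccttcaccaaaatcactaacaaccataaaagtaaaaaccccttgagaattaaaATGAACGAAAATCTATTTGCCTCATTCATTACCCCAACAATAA
The tRNA genes are 59 to 75 bases long, and the sequence of mt-Tm, the tRNA for methionine and the most counted of them, shows the scale.
mt-Tm (chrM:3845-3913, plus strand): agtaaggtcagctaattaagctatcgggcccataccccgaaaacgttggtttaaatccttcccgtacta

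Total counts per library lay between 20804247 and 43351424, with a median of 28844788. Region markers separated some regions better than others. The sum of 3 thalamus markers was 1109 to 1410 CPM (counts scaled to a fixed library total) of nuclear genes in the DMT and at most 202.8 elsewhere, while striatum markers in the BLA reached 1859, inside the range of the Nacc (654 to 2474). Hippocampus markers, at 706.7 to 1094 in the vHipp, reached 1031 elsewhere, and cortex markers, at 1224 to 2237 in the mPFC and ACC, reached 1819 elsewhere. Choroid plexus markers in the BLA ranged from 7.54 to 5849 CPM of nuclear genes. When each library was compared with the other regions of every mouse over genes that differ between mice, 12 Nacc libraries matched another mouse than the labelled one, 2 in each of the 6 groups, and 0 libraries of the other regions did. The 12 matched mice were the same 12 as the labelled ones, in another order, and these libraries carry consecutive numbers in their names. The correlation was 0.673 to 0.926 with the matched mouse and -0.265 to 0.322 with the labelled one. Each of the 12 matched a mouse of another condition, another set or both, so these labels are in doubt for them. How labels and libraries came apart was not tested. The libraries were kept under their labels, and values without them are added for part of the results that rest on the Nacc. The library of mouse 89 in the ACC (Ctrl_Veh, SocialInteraction) stood apart. Its mt-Nd5 level was 1436 CPM against 2343 to 3514 in the other ACC libraries, and Gm29216 took 21.5% of the counts of its pair with mt-Co1 against 4.25 to 10.7%. The libraries of a region carry consecutive numbers in their names, except for the mPFC library of mouse 55, whose number adjoins those of the ACC. The labels do not say what the numbers stand for, and anything tied to them cannot be told apart from the region.

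The mitochondrial genes took 4.45 to 7.73% of all counts of a library, with a mean of 5.57% ± 0.67 (SD over all libraries). The 13 mRNA genes accounted for nearly all of this, with 5.12% ± 0.63, and the rRNA genes for 0.448% ± 0.073. The share was highest in the Nacc, at 6.37% ± 0.44 (SD, n = 41), with a range of 4.99 to 7.16% and a median of 6.34%. The vHipp followed with 6.17% ± 0.65 and the widest range, 4.99 to 7.73%. The other 4 regions lay lower and close together. The BLA had 5.43% ± 0.31 (4.74 to 6.37%), the DMT 5.31% ± 0.28 (4.92 to 6.29%) and the mPFC 5.20% ± 0.46 (4.45 to 6.25%). The ACC was lowest, at 4.93% ± 0.27 (4.47 to 5.61%). In bulk tissue, a lower share can mean fewer cells of a type that is rich in mitochondrial RNA or less such RNA per cell, and these cannot be told apart.

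**Figure D1:**
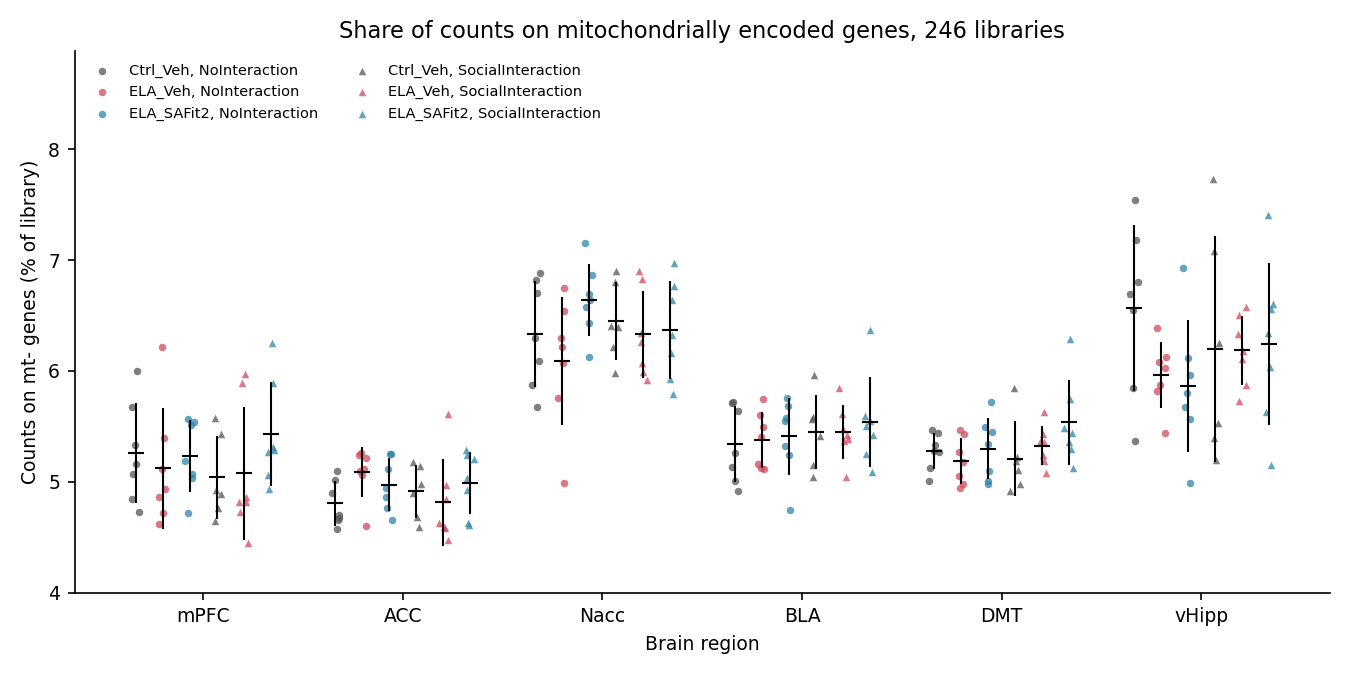
Percent of library counts on the 37 mitochondrial genes (y axis, cut at 4%) by brain region, with a point per mouse, colours for the 3 conditions, circles for mice without and triangles for mice with social interaction, and black lines for mean and SD of each group. The group means of the Nacc and vHipp sit above those of the other regions, and the groups within a region overlap.

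Because each mouse gave all 6 regions, the regions were compared within mice, with a 2-sided permutation test that flips signs at random (100000 resamples, adjusted over 15 pairs). Of the 15 pairs, 13 passed. The Nacc exceeded the DMT in 41 of 41 mice, by 1.06 percentage points, and the ACC in all but 1 mouse, by 1.44 (adjusted p = 1.5e-05 for both, where the unadjusted p of 1e-05 is the smallest that these permutations can give). Without the 12 libraries that matched another mouse, the Nacc exceeded the DMT in 29 of 29 mice, by 0.947 points, and the ACC by 1.34. The remaining 2 pairs did not pass. The Nacc exceeded the vHipp in 25 of 41 mice, by 0.197 percentage points (adjusted p = 0.0988), and without the 12 libraries that matched another mouse by 0.285 (adjusted p = 0.0448). The mPFC lay 0.111 below the DMT (adjusted p = 0.0988), and with the mRNA genes alone 0.153 below it (adjusted p = 0.0177).

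Levels per kilobase of transcript are given first without the counts assigned to nuclear copies. mt-Co1, the catalytic subunit of cytochrome c oxidase, was then the most abundant member, with 10258 ± 1005 CPM per kb (SD over all libraries), and it held 28.5% of all mitochondrial counts. mt-Atp8, a short subunit of ATP synthase, followed with 7809 ± 1248, mt-Nd1 with 6141 ± 749 and mt-Cytb, the core of complex III, with 5134 ± 739. The subunits of complex I varied over a wide range, from mt-Nd1 and mt-Nd4 (4755 ± 726) to mt-Nd5 (1934 ± 282) and mt-Nd3 (872 ± 204). The levels of mt-Rnr1 (1882 ± 302) and mt-Rnr2 (1698 ± 285) per kb were below those of most mRNAs in these polyadenylated libraries. mt-Nd6, the only mRNA gene of the minus strand, was far below all other mRNAs, with 54.4 ± 15.3 CPM per kb and 0.0507% of mitochondrial counts.

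For 5 of the 7 genes with a nuclear copy, a large part of the counts of the pair was assigned to the copy. Gm28661 held 75.9% ± 2.04 (SD over all libraries) of the counts of its pair with mt-Co2, Gm10925 62.8% ± 5.33 with mt-Atp6, Gm10222 62.3% ± 6.84 with mt-Nd4l and Gm28437 57.5% ± 2.95 with mt-Co3. Gm28438 held 51.4% ± 11.1 with mt-Nd3. The copies of mt-Co1 and mt-Nd4, which cover only part of their genes, held 5.67% ± 1.34 and 0.529% ± 0.12. Together the 7 copies took 1.23 to 2.03% of a library. With each copy added, the levels per kb of mt-Co2 (9711 ± 1195), mt-Atp6 (10869 ± 1485) and mt-Co3 (8212 ± 991) came closer to that of mt-Co1 (10877 ± 1073 with its own copy). The order of members changed with this, since these sums lay above mt-Atp8, which is not among the 7 genes. Reads inside bases that do not differ cannot be assigned to gene or copy by sequence, so the levels of these members alone depend on how the counting tool divided such reads.

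The split between mt-Nd3 and Gm28438 differed most between regions. The copy held 37.6% ± 7.68 of the pair in the mPFC (25.7 to 55.8%) and 47.6% ± 8.90 in the ACC. It held 54.5% ± 7.26 in the DMT, 56.3% ± 6.71 in the BLA and 62.5% ± 9.42 in the vHipp (46.2 to 88.2%), with the Nacc between the ACC and the DMT. By contrast, the copy of mt-Co2 held between 75.4 and 76.8% in every region. Within a region, mt-Nd3 alone had a mean SD of 0.29 on the log2 CPM scale after group means were removed, and the sum of gene and copy 0.13. The same narrowing was found for mt-Atp6 (0.20 to 0.11) and mt-Nd4l (0.26 to 0.14). The log2 ratio of gene to copy in a mouse agreed little between regions in the median: the median correlation between regions lay between -0.035 for mt-Atp6 and 0.093 for mt-Co1 over 15 pairs of regions and 41 mice, given as a description. Single pairs of regions went from -0.521 for mt-Nd3 to 0.499 for mt-Co3.

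**Figure D2:**
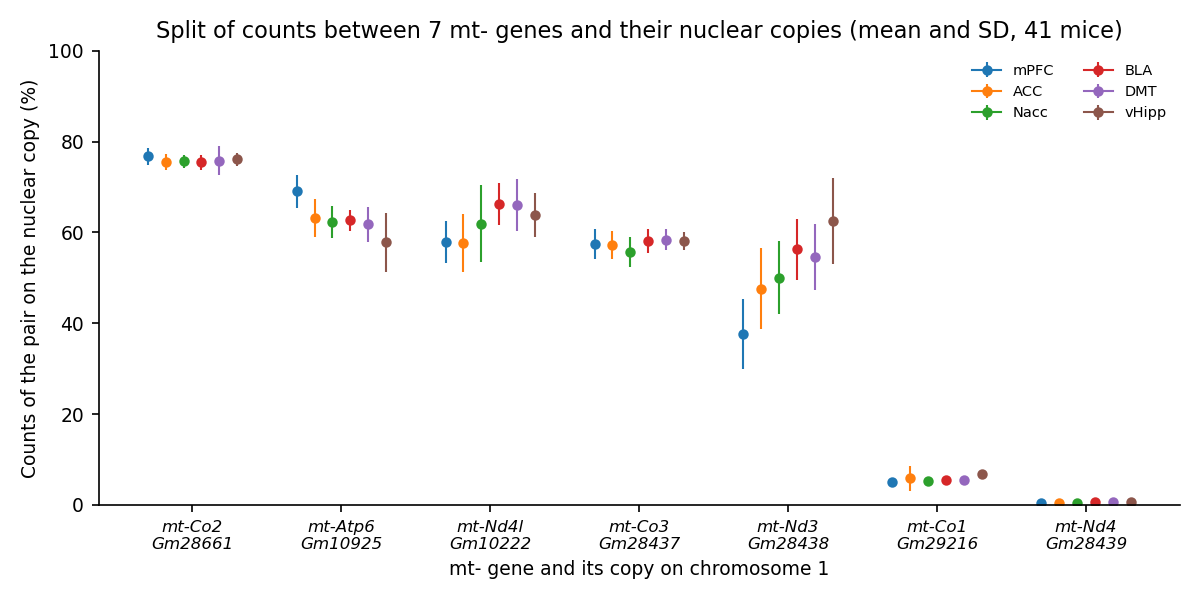
Percent of the counts of each pair that were assigned to the nuclear copy (y axis) for 7 mitochondrial genes and their copies on chromosome 1, with a point for the mean and a line for the SD over 41 mice in each of the 6 regions. The split is nearly constant across regions for mt-Co2 and climbs from 37.6% in the mPFC to 62.5% in the vHipp for mt-Nd3.

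Single genes were compared between regions with edgeR's quasi-likelihood test with the mouse as a block, each region against the mean of the other 5, on 26835 genes. Of the members, 20 passed the filter on low counts (all mRNA and rRNA genes and 5 tRNA genes), and the other 17 are tRNA genes with a summed count under 100. Over the 6 regions, 88 of the 120 member tests passed an adjusted p of 0.05, 37 higher and 51 lower. Most genes of these tissues differ between regions: among all genes tested, 76.4% passed for the DMT, 68.2% for the vHipp, 66.6% for the Nacc, 63.2% for the ACC, 62.1% for the mPFC and 62% for the BLA. The count of members is therefore near the background, with 13 to 17 of 20 per region. The directions were one-sided in several regions. In the Nacc 13 members were higher and 0 lower, where 35% of all genes were higher and 31.7% lower. In the vHipp 16 were higher and 1 lower, against 34.6% and 33.7% of all genes. In the ACC 0 were higher and 14 lower (30% and 33.3% of all genes), in the DMT 2 and 13 (36.6% and 39.7%), in the mPFC 2 and 12 (31.2% and 30.9%) and in the BLA 4 and 11 (32.9% and 29.1%). Members are not independent of each other. Across the mice of a region, r was 0.899 to 0.978 for mt-Nd1 with mt-Nd4, but -0.214 to 0.564 for mt-Nd6 with mt-Nd5. Since each region is set against the mean of the other 5, a high level in 1 region lowers the differences of the rest.

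The median log2 difference of the 20 members was 0.24 in the vHipp and 0.21 in the Nacc, where the median of all genes was 0.00 and 0.01. It was -0.17 in the ACC, -0.14 in the DMT, -0.09 in the mPFC and -0.09 in the BLA, with medians of all genes between -0.03 and 0.02. In the Nacc, all 13 mRNAs were higher, by 0.18 (mt-Co1, mt-Nd1 and mt-Nd5) to 0.38 (mt-Nd3) on the log2 scale.

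The rRNA genes did not follow the mRNAs in every region. mt-Rnr1, the RNA of the small ribosomal subunit, was highest in the vHipp, with 2198 ± 231 CPM (SD, n = 41, 1767 to 2718), and lowest in the DMT, with 1497 ± 187 (1249 to 2302). The other regions lay between 1759 (ACC) and 1801 CPM (mPFC). Against the mean of the other regions this was a log2 difference of 0.39 ± 0.02 (SE) in the vHipp and of -0.33 ± 0.02 in the DMT (edgeR, adjusted p = 8.6e-51 and 5.4e-39). In the Nacc, where the mRNAs were higher, mt-Rnr1 had a difference of -0.04 ± 0.02 (adjusted p = 0.0654), which passed at -0.06 without the 12 libraries with a doubtful mouse label. The value was 0.03 ± 0.02 (adjusted p = 0.211) for mt-Rnr2, the RNA of the large subunit. Between pairs of regions, mt-Rnr1 did not pass for mPFC and ACC (adjusted p = 0.479), ACC and Nacc (0.0878) or Nacc and BLA (0.179). The log2 ratio of rRNA to mRNA counts, -3.33 ± 0.15 (SD, n = 41) in the vHipp, was lowest in the Nacc (-3.72 ± 0.13) and the DMT (-3.68 ± 0.12).

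mt-Nd6, a subunit of complex I, had the widest differences of all members that were counted in every library. Its mean level was 37.7 ± 5.74 CPM in the vHipp (29.2 to 50.1), 31.8 ± 6.43 in the Nacc, 31.7 ± 3.74 in the BLA and 27.0 ± 5.40 in the DMT. The cortical regions were lowest, with 21.7 ± 3.39 in the ACC (15.6 to 27.6) and 19.4 ± 3.89 in the mPFC (14.1 to 27.7). The ranges of the mPFC and the vHipp do not overlap. The log2 differences were 0.58 ± 0.04 (SE) in the vHipp, 0.22 ± 0.04 for the Nacc, 0.19 ± 0.04 for the BLA, -0.36 ± 0.04 in the ACC and -0.57 ± 0.04 in the mPFC, while the DMT did not pass (-0.06 ± 0.04, adjusted p = 0.209). The Nacc and the BLA did not differ beyond their spread (adjusted p = 0.707). In the BLA the other mRNAs that passed were lower, except mt-Nd5, which overlaps the end of mt-Nd6 on the opposite strand, with 0.08 ± 0.03. The library kit marks the strand, and the setting used in counting is not given in the sources used here, so reads of the short overlap cannot be assigned with certainty.

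Where the 7 genes were summed with their copies, 90 of 120 member tests passed. mt-Nd3 alone was higher in the mPFC (0.26 ± 0.05) and lower in the vHipp (-0.23 ± 0.05). Its sum with Gm28438 was lower in the mPFC (-0.20) and higher in the vHipp (0.22). In CPM, mt-Nd3 alone went from 342 ± 52.1 in the mPFC to 260 ± 62.1 in the vHipp, while the sum went from 549 ± 58.6 to 698 ± 47.9. The lowest mt-Nd3 value, 88.4 CPM, came from the vHipp library of mouse 59. mt-Nd4l alone was lower in the BLA (-0.13 ± 0.04) and its sum with Gm10222 higher (0.06). mt-Atp6 kept its direction in every region, but the difference in the vHipp went from 0.47 alone to 0.25 with Gm10925, and in the mPFC from -0.38 to -0.07.

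**Figure D3:**
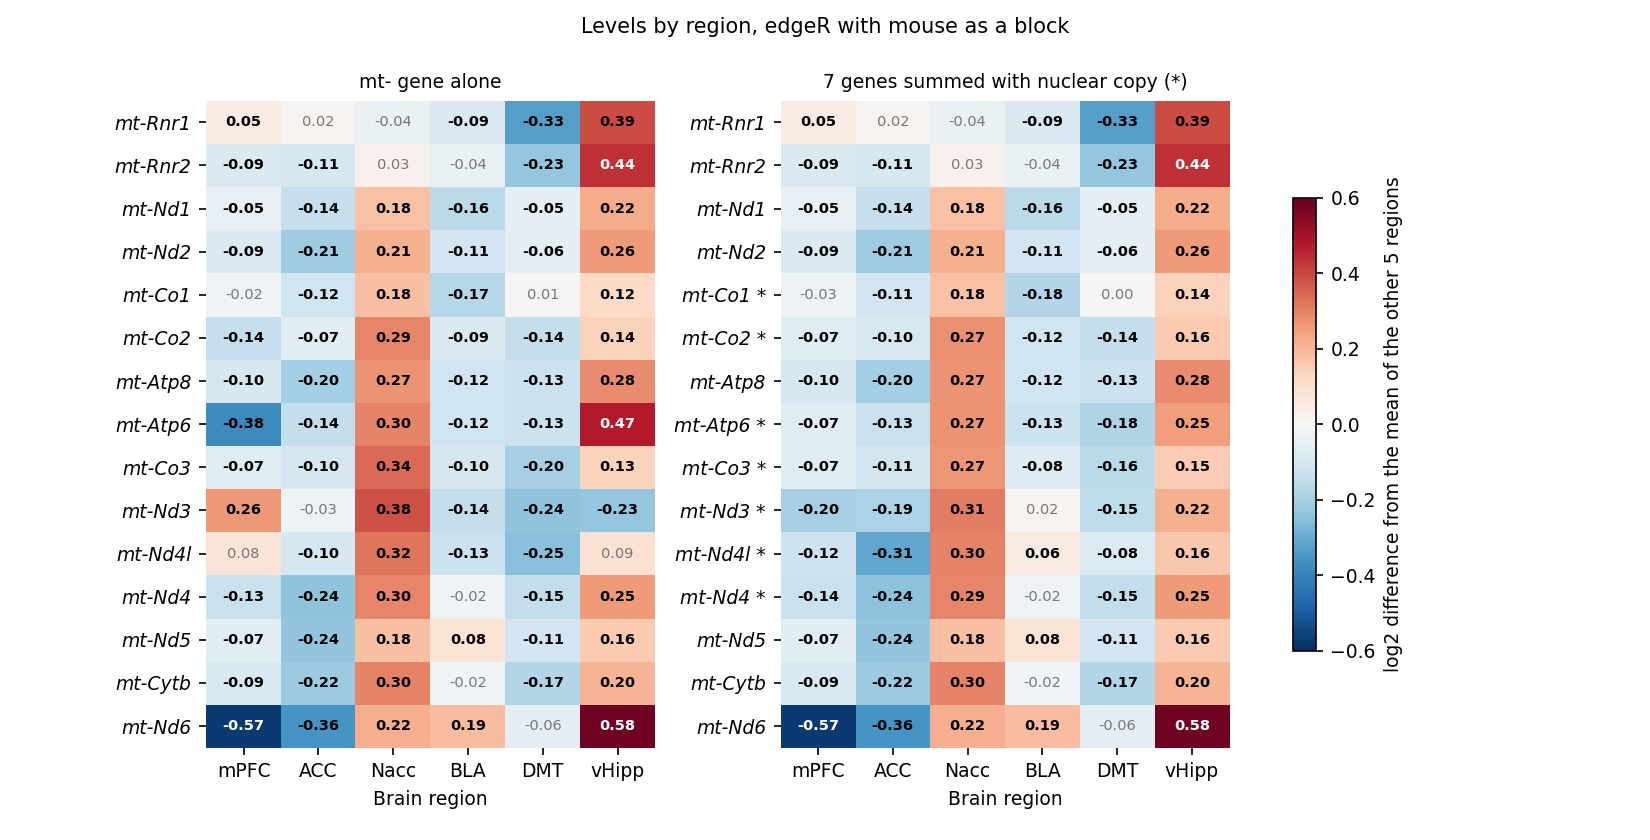
Log2 difference of each mRNA and rRNA gene (rows) in a region (columns) from the mean of the other 5, for genes alone (left) and with 7 genes, marked by a star, summed with their nuclear copies (right). Bold values passed an adjusted p of 0.05 in edgeR with the mouse as a block. mt-Nd3 in the mPFC goes from 0.26 to -0.20 and in the vHipp from -0.23 to 0.22.

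The tRNA genes summed to 2401 counts over all libraries. mt-Tm had 1123 of them, mt-Tl1 (leucine) 426, mt-Tv (valine) 284, mt-Th (histidine) 148 and mt-Tw (tryptophan) 113, and no tRNA exceeded 19 counts in a library. mt-Ty and mt-Ts2 were at 0 in every library. mt-Tm ranged from 0 to 0.616 CPM, with means of 0.0966 in the mPFC and 0.107 in the ACC and between 0.167 and 0.202 in the other regions. Its log2 difference was 0.46 ± 0.13 (SE) in the DMT, 0.32 ± 0.14 in the vHipp, 0.31 ± 0.14 in the BLA, -0.51 ± 0.15 in the ACC and -0.73 ± 0.15 in the mPFC. The values for the BLA and the vHipp did not pass without the filter on low counts, and that for the BLA did not pass without the mouse block. mt-Tw was lower in the BLA (-0.94 ± 0.34) and higher in the DMT (0.60 ± 0.26) and the vHipp (0.92 ± 0.27), mt-Tl1 was higher in the BLA (0.49 ± 0.18) and mt-Tv in the vHipp (0.67 ± 0.24). At a few counts per library these values have a large counting error, and tRNA sequence inside an unprocessed precursor is counted as well.

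Nuclear genes of mitochondrial function, from 4 lists, did not take the same order of regions. Of 76 tested nuclear subunits of oxidative phosphorylation (of 90 listed), 59 were higher and 10 lower in the DMT, where most mitochondrial genes were lower. Ndufa10, a subunit of complex I, was higher there by 0.59 ± 0.01 (SE) and Atp5b, the catalytic subunit of ATP synthase, by 0.31 ± 0.01. In the vHipp 5 were higher and 57 lower, among them Cox4i1 (-0.25 ± 0.02) and Sdhb (-0.21 ± 0.01), where most mitochondrial genes were higher. In the Nacc 45 were higher and 7 lower, and 3 against 49 for the BLA. The cortical regions were less one-sided, with 15 higher and 31 lower for the mPFC and 31 and 16 for the ACC. Of all genes, 36.6% were higher and 39.7% lower in the DMT, and 29.1 to 35% passed in each direction in the other regions. The median of the list was 0.12 for the DMT, 0.05 for the Nacc, 0.03 for the ACC, -0.02 for the mPFC, -0.08 for the BLA and -0.10 for the vHipp.

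Of 16 genes of mitochondrial transcription and DNA maintenance, 11 were higher and 3 lower in the Nacc, 3 and 10 in the ACC, 7 and 9 in the DMT, 8 and 7 in the vHipp, 6 and 7 in the BLA and 3 and 7 in the mPFC. Such counts of a short list can be near the background, as in the mPFC, where 10 of the 16 passed and 62.1% of all genes did. Polrmt, the polymerase, was higher in the DMT (0.33 ± 0.01) and lower in the vHipp (-0.13 ± 0.01) and the mPFC (-0.15 ± 0.01). Tfam, which packages and activates mitochondrial DNA, was higher in the vHipp (0.17 ± 0.01) and lower in the DMT (-0.18 ± 0.01). Twnk, the replicative helicase, was higher in the Nacc (0.28 ± 0.02) and lower in the DMT (-0.34 ± 0.02). Of 29 tested genes of RNA processing and stability, 17 were higher and 7 lower in the Nacc. The BLA had 8 higher and 15 lower, the DMT 9 and 13, the vHipp 10 and 12, the ACC 9 and 12 and the mPFC 10 and 9. Grsf1, an RNA-binding protein of mitochondrial RNA granules, was higher in the DMT (0.33 ± 0.01) and lower in the vHipp (-0.21 ± 0.01), and Mtpap, the mitochondrial poly(A) polymerase, was higher in the mPFC (0.13 ± 0.01) and the ACC (0.12 ± 0.01) and lower in the BLA (-0.15 ± 0.01). Of 8 regulators of mitochondrial biogenesis, 6 were higher and 1 lower in the Nacc, where Ppargc1b (0.48 ± 0.03) and Esrra (0.28 ± 0.02) led, and 2 and 6 in the DMT, where Esrra was higher by 0.72 ± 0.02 and Nrf1 lower by 0.27 (-0.27 ± 0.02). The counts were 0 and 4 for the ACC, 4 and 3 for the BLA and 3 and 3 for both the mPFC and the vHipp.

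The conditions of early life were compared within each region and set, to ask whether adversity or SAFit2 left a trace in mitochondrial RNA of adult mice. For the share of counts, 0 of 36 exact 2-sided permutation tests passed after adjustment over the 36, while 2 fell under 0.05 unadjusted. In the ACC without interaction, ELA_Veh mice had 5.09% ± 0.23 (SD, n = 7, 4.60 to 5.26%, median 5.11%) and Ctrl_Veh mice 4.81% ± 0.20 (4.58 to 5.10%, median 4.70%), a difference of 0.28 percentage points (exact permutation p = 0.0355, adjusted 0.671). ELA_SAFit2 mice lay between, with 4.98% ± 0.24. In the Nacc without interaction, ELA_SAFit2 mice had 6.64% ± 0.32 (n = 7, 6.13 to 7.16%) and ELA_Veh mice 6.09% ± 0.58 (4.99 to 6.75%), a difference of 0.552 points (exact permutation p = 0.0373, adjusted 0.671), and without the libraries that matched another mouse of 0.629 with 5 mice each (exact permutation p = 0.0952). The groups overlapped in both cases. The largest differences of group means were in the vHipp without interaction, where Ctrl_Veh mice had 6.57% ± 0.75 (5.37 to 7.54%), ELA_Veh mice 5.96% ± 0.30 and ELA_SAFit2 mice 5.86% ± 0.59 (exact permutation p = 0.0711 and 0.0752, adjusted 0.677 for both). With interaction, the 3 means in the vHipp were 6.20% ± 1.02, 6.19% ± 0.31 and 6.25% ± 0.73. For the mean of a mouse's 6 regions, the smallest of 6 p-values was 0.258 (exact permutation test, before adjustment). The difference of the condition effects between the 2 sets had no adjusted p below 0.618 in 12 tests.

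For single genes, edgeR called 0 of 561 member tests over the 36 comparisons. An unadjusted p under 0.05 was found for 40 (7.13%). Among all genes, 3 of 688314 tests were called and 4.23% had an unadjusted p under 0.05. The percent of all genes called was 0 in 33 of the 36 comparisons, 0.00515% in the BLA with interaction for ELA_SAFit2 against either other condition, and 0.00532% in the vHipp with interaction for ELA_Veh against Ctrl_Veh. DESeq2 called 0 of the 561 as well, with 47 under an unadjusted p of 0.05 and a smallest adjusted p of 0.0533. The members under an unadjusted 0.05 were most often in the comparisons named above. In the ACC without interaction, mt-Rnr1 had 1606 ± 55.8 CPM in Ctrl_Veh mice (1537 to 1670), 1861 ± 151 in ELA_Veh mice (1652 to 2084) and 1754 ± 126 in ELA_SAFit2 mice, a log2 difference of ELA_Veh from Ctrl_Veh of 0.20 ± 0.05 (SE, edgeR adjusted p = 0.649). With interaction, the same groups had 1776 ± 380, 1701 ± 218 and 1856 ± 145 CPM, and the highest Ctrl_Veh value was that of mouse 89. In the Nacc without interaction, mt-Atp8 had 1982 ± 89.2 CPM in ELA_SAFit2 mice (1885 to 2096) and 1700 ± 135 in ELA_Veh mice (1453 to 1895), with a log2 difference of 0.23 ± 0.06 (SE, edgeR adjusted p = 0.584). In the set with interaction, mt-Atp8 of these groups stood at 1871 ± 87.5 and 1863 ± 139 CPM. mt-Nd4l differed by 0.59 ± 0.15 in the same comparison (SE, edgeR adjusted p = 0.584), with 569 ± 92.5 and 382 ± 91.6 CPM. Summed with its copy, mt-Nd4l had 1260 ± 106.8 and 1145 ± 159 CPM in these groups. In each of these Nacc groups, 2 of the 7 libraries matched another mouse than the labelled one, and the values given include them. Without such libraries 5 were left in each of these groups. edgeR then called 0 of 90 member tests over the 6 Nacc comparisons, with a smallest adjusted p of 0.996.

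When the 6 libraries of a mouse were added up, 0 of 108 member tests were called by edgeR (5 at an unadjusted p under 0.05) and 0 by DESeq2 (5). The smallest p there was for mt-Atp8, at -0.09 ± 0.03 in ELA_Veh against Ctrl_Veh without interaction (edgeR adjusted p = 0.723). Of the differences in condition effects between the sets, edgeR called 0 of 192 (11 at an unadjusted p under 0.05) and DESeq2 0 (12). Of all genes, 0.0383% were called in the DMT, 0.0338% in the vHipp, 0.0242% in the ACC and 0.0236% in the Nacc for ELA_SAFit2 against ELA_Veh, and 0 in the other 8 such comparisons. Among the 4 lists of nuclear mitochondrial genes, 0 genes were called in any comparison of conditions.

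The mice with a social interaction were compared with those without, averaged over the 3 conditions. The share of counts was 5.59% ± 0.23 (SD, n = 20) with and 5.55% ± 0.21 (n = 21) without interaction as a mean over the regions, a difference of 0.04 points (permutation p = 0.563). In the 6 regions the difference lay between -0.0487 in the ACC and 0.104 in the BLA (permutation test, adjusted p = 0.873 in each). edgeR called 0 of 116 member tests (4 at an unadjusted p under 0.05) and DESeq2 0 (7). In the same fits 5.59% of all genes were called in the mPFC, 5.16% with the regions summed, 2.8% in the ACC, 1.06% in the DMT, 0.897% in the BLA, 0.845% in the vHipp and 0 in the Nacc. Log2 differences of the mRNA and rRNA genes lay between -0.08 and 0.14. mt-Co1 summed over the regions differed by 0.01 ± 0.02 (SE, edgeR adjusted p = 0.928) and mt-Rnr1 by 0.04 ± 0.03 (edgeR adjusted p = 0.663). Some nuclear genes of mitochondrial function were called. Among the 8 regulators of biogenesis there were 7 calls over the 7 comparisons, all higher after interaction: Nrf1, a transcription factor for respiratory genes, rose in the mPFC (0.18 ± 0.03, edgeR adjusted p = 0.00013) and the ACC (0.17 ± 0.03, edgeR adjusted p = 0.00093), Gabpb1 in the mPFC and Gabpa in the BLA, and all 3 with the regions summed. Of the 8 regulators, 2 were called in the mPFC, 1 each in the ACC and the BLA, and 3 in the sum. Of all genes, 5.59%, 2.8%, 0.897% and 5.16% were called there. The sum holds the same libraries as the 6 regions, so its 3 calls repeat these genes. Genes of RNA processing had 5 calls, all higher. These were 2 of 29 tested genes in the mPFC, 1 in the ACC and 2 in the sum, near the percents of all genes. Grsf1 rose in the mPFC (0.10 ± 0.02), the ACC (0.07 ± 0.02) and the sum (0.05 ± 0.01), and Ptcd2 in the mPFC (0.08 ± 0.03, edgeR adjusted p = 0.0395) and the sum (0.05 ± 0.01, edgeR adjusted p = 0.0302). Among nuclear subunits of oxidative phosphorylation there were 2 calls, both on Ndufb2 (0.08 ± 0.02 in the mPFC and 0.07 ± 0.02 in the sum), and among genes of transcription 0. For the subunits this is 1 of 75 tested in the mPFC and 1 of 76 in the sum, below the percents of all genes.

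Mice differed from each other in mitochondrial rRNA in the same way in several regions. After subtraction of the group means, mt-Rnr1 correlated between regions across 41 mice with a median r of 0.476 over 15 pairs of regions (0.343 to 0.760), and mt-Rnr2 with 0.4995 (0.293 to 0.796). Leaving out the 12 Nacc libraries with a doubtful mouse label, the medians were 0.523 and 0.538. For the share of counts the median was 0.169, for mt-Co1 0.160, for mt-Cytb 0.134 and for mt-Nd6 0.002. The highest medians of mRNA genes alone were those of mt-Nd2 (0.256) and mt-Nd1 (0.235). Without the 12 libraries these were 0.381 and 0.353, while the share had 0.126, mt-Co1 0.160, mt-Cytb 0.057 and mt-Nd6 -0.026. The values are a description, because regions of a mouse share handling and the points share their mice. Within a region mt-Rnr1 and mt-Rnr2 correlated with r between 0.916 and 0.947 across mice. The mouse with the highest mean of mt-Rnr1 was mouse 31 (ELA_SAFit2, SocialInteraction), with 2718 CPM in the vHipp, 2302 in the DMT, 2261 in the mPFC, 2250 in the BLA, 2072 in the ACC and 2021 in the Nacc. It ranked between 1 and 4 of 41 in every region. The means of mouse 71 (ELA_SAFit2, NoInteraction), 1546 CPM over the regions, and mouse 17 (Ctrl_Veh, SocialInteraction), 1570 CPM, were the lowest. Mouse 71 ranked last in the BLA and the vHipp. Mouse 17 ranked 35 to 41 in 5 regions and 15 in the Nacc, where its library is 1 of the 12 that matched another mouse, so which of the 2 is lower depends on that library.

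**Figure D4:**
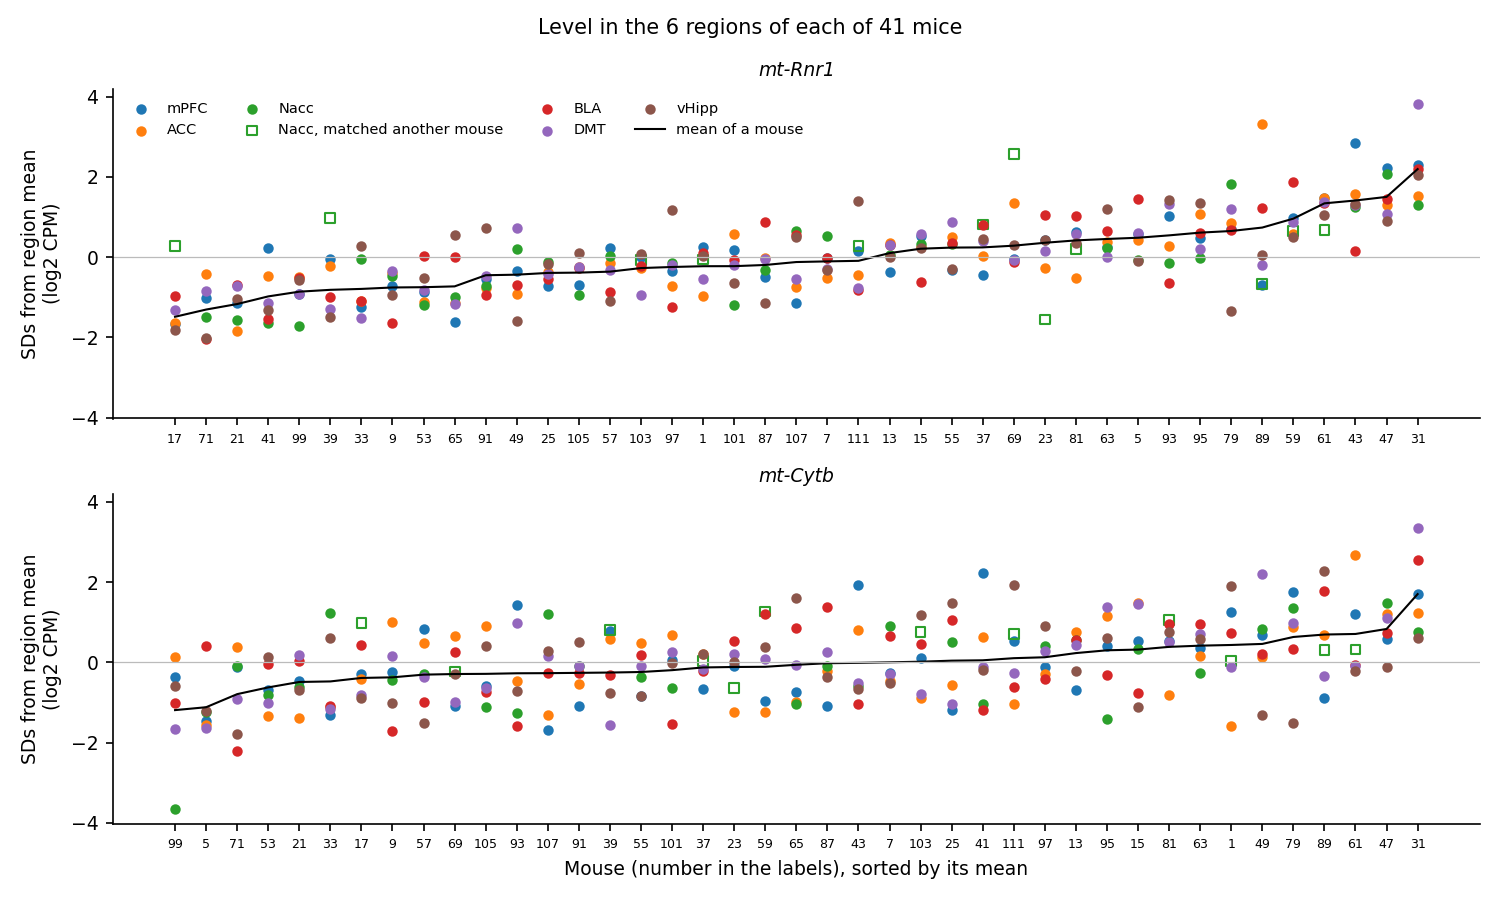
Level of mt-Rnr1 (top) and mt-Cytb (bottom) in each region of each of 41 mice, as SDs of log2 CPM from the mean of the region (y axis), with mice sorted by their mean (x axis), a colour per region, open squares for the 12 Nacc libraries that matched another mouse, and a black line for the mean of a mouse. The regions of a mouse lie closer together for mt-Rnr1, with a median r between regions of 0.476, than for mt-Cytb, with 0.134.

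The rRNA levels also bear on the 12 Nacc libraries whose profile matched another mouse. For each, the level of mt-Rnr1, in SDs of log2 CPM from the mean of the region, was set against the mean of the other 5 regions. Against the labelled mouse the correlation was -0.023 over the 12 libraries, and against the matched mouse 0.807. For mt-Rnr2 it was -0.119 and 0.861, and for mt-Co1 -0.257 and 0.839. The 29 other Nacc libraries had 0.737, 0.612 and 0.416 with their own mouse.

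The share of counts moved with other measures of the same library, in ways that differed between regions. Across the 41 mice of a region, with group means subtracted, 42 relations were tested with permutations (100000 resamples) and adjusted over the 42. All values are parts of the same library, so they are not independent of each other. In the mPFC the share rose with the sum of astrocyte markers (Pearson r = 0.75, adjusted p = 0.00021, and Spearman rho = 0.68, adjusted p = 0.00042), and r was 0.70 without the 2 mice farthest from the median. In the ACC this relation was weaker (r = 0.48, adjusted p = 0.00644 and rho = 0.38, adjusted p = 0.0557, with r = 0.35 without 2 mice). The astrocyte markers ranged from 623 to 1226 CPM of nuclear genes in the mPFC and from 648 to 898 in the ACC. Neuron markers had the opposite sign in 4 regions. Their r was -0.65 in the Nacc (adjusted p = 0.00021 and rho = -0.63, adjusted p = 0.00084, with -0.58 without 2 mice and -0.69 without the 12 libraries that matched another mouse), -0.52 in the BLA (adjusted p = 0.0036 and rho = -0.49, adjusted p = 0.00905, with -0.46 without 2 mice) and -0.46 in the mPFC (adjusted p = 0.0108 and rho = -0.34, adjusted p = 0.085, with -0.35 without 2 mice). In the ACC it was -0.39 (adjusted p = 0.0353 and rho = -0.23, adjusted p = 0.301) and rested on 2 mice, since it was -0.16 without them. The other regions had positive values that did not pass. They were 0.19 in the DMT (adjusted p = 0.377 and rho = 0.34, adjusted p = 0.085, with 0.49 without 2 mice) and 0.21 in the vHipp (adjusted p = 0.348 and rho = 0.12, adjusted p = 0.636, with 0.10 without 2 mice).

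Oligodendrocyte markers went with a higher share in the BLA (r = 0.50, adjusted p = 0.0041 and rho = 0.47, adjusted p = 0.00905, with 0.51 without 2 mice) and with a lower share in the mPFC (r = -0.44, adjusted p = 0.0149 and rho = -0.50, adjusted p = 0.00899, with -0.45 without 2 mice). The ACC resembled the mPFC here, but only rho passed (r = -0.35, adjusted p = 0.0678 and rho = -0.48, adjusted p = 0.00905, with -0.43 without 2 mice). Haemoglobin genes of red cells went with a higher share in the mPFC (r = 0.53, adjusted p = 0.0036 and rho = 0.48, adjusted p = 0.00905, with 0.46 without 2 mice). In the Nacc the share fell with the total count (r = -0.55, adjusted p = 0.00168 and rho = -0.58, adjusted p = 0.00182, with -0.57 without 2 mice and -0.57 without the 12 libraries) and rose with the long noncoding RNAs Malat1, Meg3 and Neat1, which stay in the nucleus (r = 0.54, adjusted p = 0.00168 and rho = 0.52, adjusted p = 0.00809, with 0.54 without 2 mice and 0.60 without the 12 libraries). These RNAs also went with the share in the vHipp (r = 0.42, adjusted p = 0.0216 and rho = 0.39, adjusted p = 0.051, with 0.36 without 2 mice). The nuclear subunits of oxidative phosphorylation did not move with the share in a common direction. Their r was 0.59 in the DMT (adjusted p = 0.00168 and rho = 0.36, adjusted p = 0.0689), which fell to 0.28 without 2 mice, and -0.39 in the vHipp (adjusted p = 0.0353 and rho = -0.45, adjusted p = 0.0125, with -0.49 without 2 mice).

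**Figure D5:**
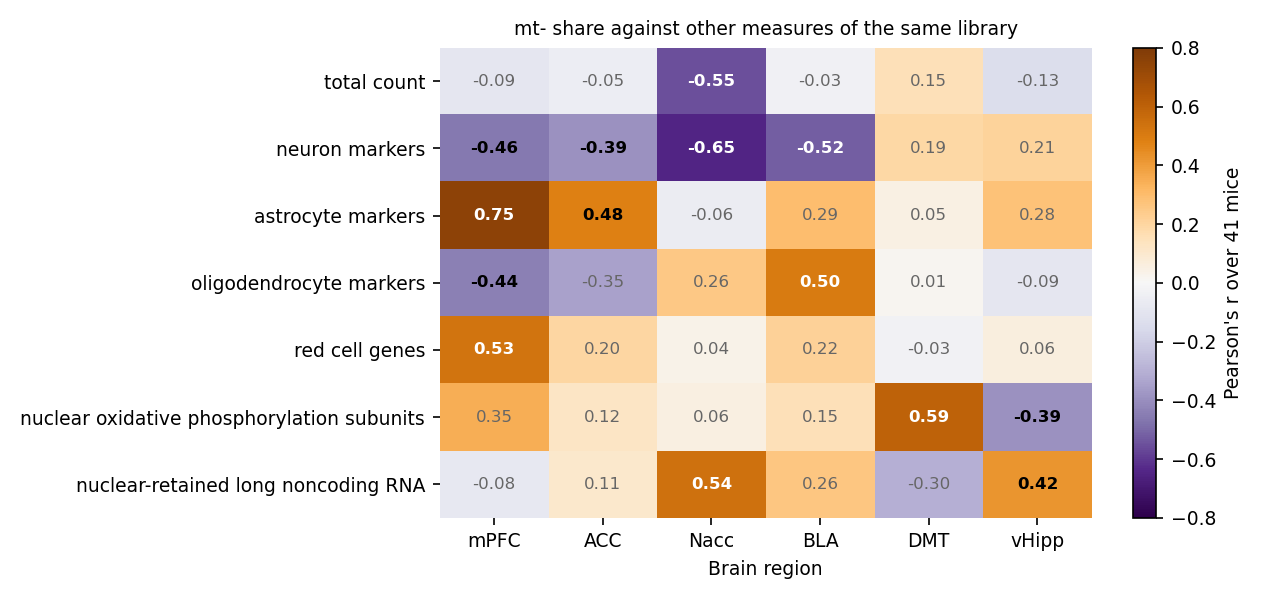
Pearson's r between the mitochondrial share of counts and 7 other measures of the same library (vertical axis) in each of 6 regions (horizontal axis), over 41 mice with group means subtracted. Bold values passed an adjusted p of 0.05 over the 42 relations, and the strongest is 0.75 for astrocyte markers in the mPFC.

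For tissue at the border of a punch, 12 further relations were computed after the spread of these markers was seen, and adjusted over the 12. In the BLA the share rose with striatum markers (r = 0.57, adjusted p = 0.00044 and rho = 0.63, adjusted p = 0.00072, with 0.52 without 2 mice) and fell with choroid plexus markers (r = -0.42, adjusted p = 0.0174 and rho = -0.40, adjusted p = 0.0271, with -0.30 without 2 mice). In the Nacc the share rose with striatum markers (r = 0.37, adjusted p = 0.0375 and rho = 0.42, adjusted p = 0.018, with 0.58 without 2 mice, and 0.65 without the 12 libraries that matched another mouse). Choroid plexus markers also went with the share in the mPFC (r = 0.58, adjusted p = 0.00042 and rho = 0.43, adjusted p = 0.018, with 0.46 without 2 mice) and the ACC (r = 0.58, adjusted p = 0.00042 and rho = 0.47, adjusted p = 0.0116, with 0.45 without 2 mice), where they lay at or below 10.2 CPM of nuclear genes. In the Nacc their r was 0.40 (adjusted p = 0.0222 and rho = 0.29, adjusted p = 0.128), which fell to 0.18 without 2 mice and was 0.43 without the 12 libraries. The part of tissue composition in the differences between regions was not tested.

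Among nuclear genes with a mean count of at least 100, those most like the share of counts were named by the mean of the 6 within-region correlations across mice, as a description. Among the highest were the ribosomal protein gene Rpl23a (0.585), the lipid receptor gene S1pr1 (0.564), Eogt (0.530) and Hbegf (0.522). The lowest were Ap2a2 (-0.547), Tollip (-0.529), Madd (-0.523), Scamp5 (-0.519) and Synj1 (-0.515). Ap2a2, Scamp5 and Synj1 serve the traffic of vesicle membranes, and Madd the traffic of synaptic vesicles. Synj1 had r = 0.110 in the vHipp, and the other genes named here had the same sign in all 6 regions.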

How the data were processed

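The deposited table holds estimated counts per gene, which the authors made from stranded, poly(A)-selected paired reads with salmon, as the table name gives. No scaling to depth or transcript length had been applied, and 12.1% of values are not whole. STAR, DESeq2 and GRCm39 are credited to the submitters' processing notes, and versions are not given in the sources used here. Counts were rounded for tests. CPM and shares use all counts of a library, and intervals from depth cover counting error only. Groups and mouse numbers came from the labels. Genes counted in 6 or more libraries and with a sum of 100 or more were tested with edgeR 4.0.16 (TMM, quasi-likelihood, Benjamini-Hochberg over all genes, threshold 0.05) in R 4.3.3, with DESeq2 1.42.0 as an alternative. Between regions the mouse was a block, because all regions come from the same animals, and the dispersion trend came from an evenly spaced subset of genes. Conditions were fitted per region and set. The SE of an edgeR log2 difference was derived from the difference and the F statistic of its test. Shares were compared with permutation tests, exact between conditions, and SciPy 1.17.1 gave the ranks for Spearman's rho. Sequences and positions came from GENCODE M21 (GRCm38), which 52073 of 56691 gene identifiers matched. GRCm39 itself was not used here, so small differences from the authors' sequences are possible. A nuclear copy shares at least 90% of its 31-base words with a member and has a mean count of at least 1000. Scripts were tested on simulated counts. Members, gene lists and the rule for named genes were chosen with earlier results of these data known. The rule covers all mt- genes, 5 tRNA genes by count, up to 4 genes per list and comparison, and the 10 nuclear genes most and least like the share, of which 1 is not reported here. The alternatives are given in the closing section. Python 3.11.15, NumPy 2.4.6, pandas 2.3.3 and Matplotlib 3.10.9 did the rest.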

Additional observations from a re-analysis of the deposited data

Results flagged for a closer look

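Of 54 groups of mice checked for a sample far from the others, 5 held one by Dixon's criterion at 95%, a criterion that picks out about 5% of groups by chance. The lowest ELA_Veh mouse of the ACC without interaction had a mitochondrial share of 4.60%, and the gap to the next mouse was 0.706 of the range of the group. In the BLA the highest ELA_SAFit2 mouse with interaction had 6.37% (0.602 of the range), and in the DMT the highest Ctrl_Veh mouse with interaction had 5.85% (0.666). Averaged over the 6 regions, the highest ELA_SAFit2 mouse with interaction had a share of 6.26% (0.648). This was mouse 31, which was also highest in mt-Rnr1, at 2271 CPM averaged over the regions (0.742 of the range).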

How the results depend on the processing

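The alternatives were DESeq2, normalization on nuclear genes, no filter on low counts, protein-coding genes only, both sets in 1 model, no replicate block, libraries left out, and for the share the 13 mRNA genes or a log2 ratio. Sums with the nuclear copies, leaving out the ACC library of mouse 89 (with regions summed, the whole ACC) and the relations to striatum and choroid plexus markers were chosen after seeing the data. No alternative called a member between conditions, between sets or after interaction. The pairing of regions by mouse comes from the labels, and without the replicate block 86 of the 120 region tests passed instead of 88. Normalization on nuclear genes gave 88 of 120, leaving out the 12 Nacc libraries or the library of mouse 89 gave 86 each, sums with copies gave 90, and without the filter 86 of 210 tests passed. DESeq2, protein-coding genes only and both sets in 1 model were not run between regions. The values that changed sign all came from sums with nuclear copies: mt-Nd3 at -0.20 in the mPFC, 0.017 in the BLA and 0.22 in the vHipp, and mt-Nd4l at -0.12 in the mPFC and 0.056 in the BLA. Tests of small differences crossed the threshold under some settings, among them mt-Nd4l in the ACC (-0.07 without mouse 89) and mt-Nd1 and mt-Nd2 in the DMT (both -0.04 without it). With the mRNA genes alone, the share passed for the Nacc against the vHipp (0.302) and not for the BLA against the DMT (0.0597), and with copies the Nacc exceeded the vHipp by 0.310. Leaving out each mouse in turn gave 0 called condition tests of the share, with 0 to 4 at an unadjusted p under 0.05 and a smallest adjusted p between 0.168 and 0.895. Region tests of mt-Tm, mt-Rnr1 and mt-Rnr2 near the threshold also changed side without the filter, the cause was not tested, and depth limits the tRNA genes most.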
